A study of Mus musculus with 4 samples.

Results

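Abcg2, Abcb1a, Abcb1b, Abcc1, Abcc4, Abcc5 and Abcb10 are genes of ATP-binding cassette (ABC) transporters, and most of them encode pumps that carry drugs, dyes, conjugates or nucleotides out of the cell. They were chosen by name, with earlier results of these data known, as a set of 7 of the 18194 genes measured. Each was represented by the probe set with the highest mean over the 4 arrays among those that carry only its symbol. Their 21 probe sets are all described here. RNA came from bone marrow cells of C57BL/6 (B6) mice aged 8 weeks, sorted by FACS as Lin-c-Kit+Sca-1+, a gate that holds stem cells together with multipotent progenitors and that the labels call HSCs. There were 2 arrays labelled Alox15-/-, named for loss of the gene of arachidonate 15-lipoxygenase, and 2 labelled WT. The labels call the replicates biological but do not say how many animals each came from, so the p-values measure only the spread between these arrays, which may be partly technical. The labels give no treatment, and the sources used here do not say how the Alox15 allele was made.

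ABC transporters use the energy of ATP to move substrates across membranes. Mouse bone marrow holds a "side population" of cells that lose the dye Hoechst quickly, which is rich in stem cells, and Abcg2 is the pump chiefly known for this efflux. Abcb1a and Abcb1b together encode the mouse P-glycoproteins, which correspond to a single human gene, while Abcc1, Abcc4 and Abcc5 encode multidrug resistance-associated proteins. Abcb10 differs from the rest, since its product sits in the inner membrane of mitochondria and serves haem synthesis in erythroid cells, so the name "efflux pumps of side population cells" does not cover it. The cells here were not sorted by dye efflux, and transport was not measured.

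The windows around the annotated starts are shown for 4 of the genes: Abcg2 as the side population pump, the neighbouring paralogs Abcb1a and Abcb1b, and Abcc4, which had among the largest differences below. Sequences are RefSeq's for GRCm38.p6, from 250 bases before to 50 bases after a start, given along the strand of the gene. Windows were found for 6 of the 7 genes, 9 in all, and Abcc1 is named only. Capitals mark matches, on either strand, to the cores of 3 motifs: ACGTG, bound by hypoxia-inducible factors, GCGTG, bound by the aryl hydrocarbon receptor, and TGACNNNGC, the core of the antioxidant response element bound by NRF2. Matches to different motifs may overlap, and the palindrome CACGTG counts on both strands. ACGTG was found in 2 of the 9 windows, against 19.6% of all 32851 windows given by RefSeq. GCGTG was found in 2, against 32.4%, and TGACNNNGC in 3, against 12.4%. Several windows belong to the same gene, and both windows of Abcc4 are among the 3 with TGACNNNGC. A match is a description of the letters and not a site of binding.
Abcg2, the last of 3 starts, chr6:58640296-58640595, + strand: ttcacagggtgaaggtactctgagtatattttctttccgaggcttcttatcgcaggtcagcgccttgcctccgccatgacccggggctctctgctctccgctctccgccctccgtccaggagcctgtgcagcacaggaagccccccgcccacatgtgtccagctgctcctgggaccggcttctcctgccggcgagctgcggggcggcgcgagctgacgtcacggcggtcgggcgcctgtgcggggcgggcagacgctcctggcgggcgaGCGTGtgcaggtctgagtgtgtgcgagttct
Abcb1a, chr5:8566841-8567140, + strand: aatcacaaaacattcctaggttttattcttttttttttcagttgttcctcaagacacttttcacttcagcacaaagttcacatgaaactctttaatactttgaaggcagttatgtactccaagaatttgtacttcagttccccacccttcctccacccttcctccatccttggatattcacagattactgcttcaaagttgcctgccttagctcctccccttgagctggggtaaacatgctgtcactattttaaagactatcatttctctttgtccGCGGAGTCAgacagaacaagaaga
Abcb1b, chr5:8797897-8798196, + strand: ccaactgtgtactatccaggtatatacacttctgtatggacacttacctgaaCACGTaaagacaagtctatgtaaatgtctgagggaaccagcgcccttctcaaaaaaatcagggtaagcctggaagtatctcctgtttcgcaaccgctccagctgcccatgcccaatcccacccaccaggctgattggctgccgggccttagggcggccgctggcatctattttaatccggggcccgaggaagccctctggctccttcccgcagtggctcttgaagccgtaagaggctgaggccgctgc
Abcc4, the upstream of 2 starts, chr14:118706170-118706469, - strand: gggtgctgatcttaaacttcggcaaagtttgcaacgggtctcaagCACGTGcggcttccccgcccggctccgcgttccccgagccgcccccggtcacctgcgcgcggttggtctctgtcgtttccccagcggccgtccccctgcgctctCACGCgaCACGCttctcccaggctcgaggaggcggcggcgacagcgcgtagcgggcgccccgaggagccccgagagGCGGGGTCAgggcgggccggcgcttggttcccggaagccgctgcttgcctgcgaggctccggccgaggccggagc
The 2 paralog windows differ in base composition, with 40.3% G and C for Abcb1a and 55% for Abcb1b. The Abcc4 window shown held matches to all 3 motifs, at 72.7% G and C, while the other Abcc4 start, at 47.3%, matched TGACNNNGC only. Abcg2's last start held a single GCGTG match, while its other starts held none of the 3.

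Alox15 checks the labels. Its only probe set read 10.68 and 10.75 on the log2 scale in the arrays labelled Alox15-/-, against 4.63 and 4.35 in the arrays labelled WT, which goes against the label (limma adjusted p = 0.00133). Background was taken as the brightest of 27 bacterial controls on each array, probe sets with no mouse target. The WT values of Alox15 lay below it, which makes the arrays labelled Alox15-/- higher by at least 53.5-fold. The sources used here do not place the probe set or the deletion within the gene, and every direction below is that of the arrays as labelled. The Gapdh control probe sets for both ends of the transcript differed by 2.14 and 2.17 in the arrays labelled Alox15-/- and by 2.37 and 2.39 in WT, and the difference between groups was -0.23. The same measure for Actb differed by 0.01 between groups. Pump gene values are given as deposited, on the log2 scale, and a value of one probe set is not set against that of another. The number of arrays limits the precision, and in sorted cells fewer cells of a type and less RNA per cell cannot be told apart.

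None of the 7 pump genes passed the threshold between the arrays labelled Alox15-/- and WT. limma adjusted p-values, taken over all 18194 genes, ran from 0.657 to 0.987, and 0 of the 7 had an unadjusted p under 0.05. Among all genes 0.0055% were called at an adjusted p under 0.05, which is Alox15 alone, and 7.77% had an unadjusted p under 0.05. Differences, as Alox15-/- minus WT, were positive for 4 pump genes and negative for 3, with a median of 0.20, beside 0.02 over all genes, 53.8% of which had a positive difference. The median turned to -0.13 when all 21 probe sets were taken one by one, and was 0.10 without Alox15-/- replicate 1. Abcb1b, Abcc1 and Abcc4 had values in the arrays labelled Alox15-/- that were all above those in WT, and Abcb10 had values that were all below. These 4 of 7 (57.1%) compare with 38.5% of all genes whose groups did not overlap, 21.4% higher and 17.1% lower. All 7 main probe sets lay above background on each of the 4 arrays.

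**Figure D1:**
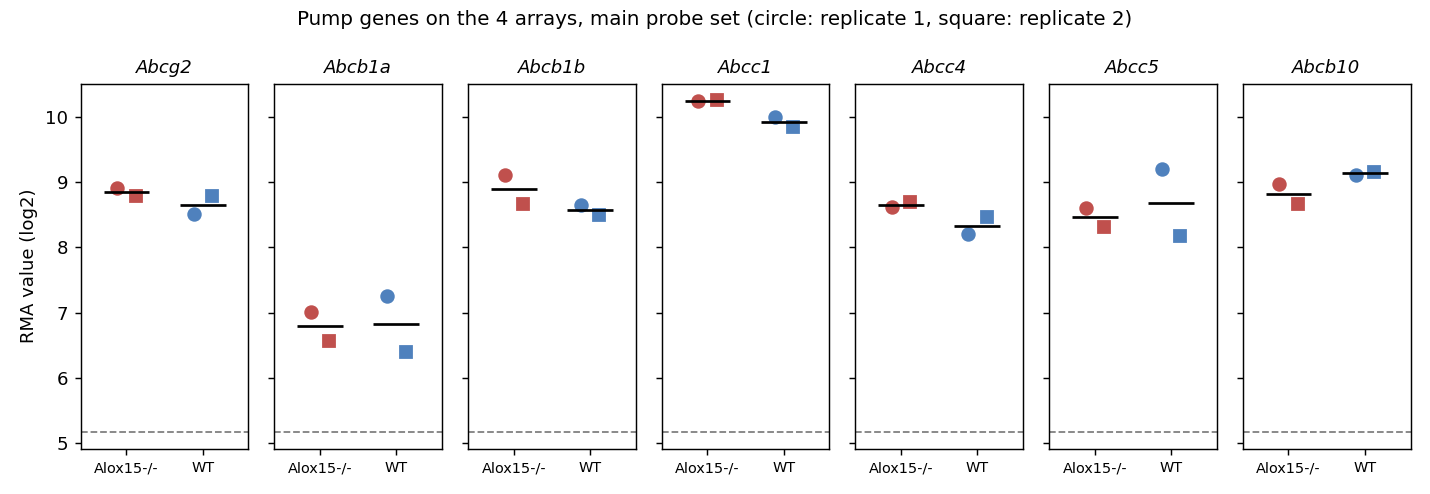
Deposited log2 values (vertical axis) of the 7 pump genes at their main probe sets, with the arrays labelled Alox15-/- in red on the left and WT in blue on the right of each panel. Circles are replicate 1, squares replicate 2, black bars group means, and the dashed line is background, shown at its highest over the 4 arrays, 5.17, which every value exceeds. The groups are apart for Abcb1b, Abcc1, Abcc4 and Abcb10.

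Abcg2, the breast cancer resistance protein that exports Hoechst dye and porphyrins, read 8.91 and 8.79 in the arrays labelled Alox15-/- and 8.52 and 8.79 in WT. Replicate 2 had the same value in both groups, so the groups touched. The difference was 0.20 ± 0.15 (SE, n = 2 each), or 1.15-fold with a 95% interval of 0.875-fold to 1.5-fold (limma adjusted p = 0.794). The gene has a single probe set here, and the difference was 0.06 without WT replicate 1 and 0.33 without WT replicate 2.

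Abcb1a and Abcb1b, the P-glycoprotein genes, export hydrophobic drugs and the dye rhodamine. Abcb1a read 7.02 and 6.57 in the arrays labelled Alox15-/- and 7.26 and 6.40 in WT, so both Alox15-/- values lay between the WT values. Its difference was -0.03 ± 0.32 (SE, n = 2 each), with a 95% interval from -0.84 to 0.78 (limma adjusted p = 0.987). The gap of 0.86 between the WT replicates exceeded the gap of 0.45 between the Alox15-/- replicates, and the difference was 0.40 without WT replicate 1, 0.19 without Alox15-/- replicate 2 and -0.46 without WT replicate 2. The other Abcb1a probe set stayed below background on all 4 arrays, at 2.94 and 3.11 in the arrays labelled Alox15-/- and 2.88 and 3.58 in WT.

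Abcb1b read 9.11 and 8.67 in the arrays labelled Alox15-/- and 8.64 and 8.50 in WT. The groups did not overlap, but Alox15-/- replicate 2 was close to WT replicate 1, and the gap between the Alox15-/- replicates was 0.44. The difference was 0.32 ± 0.19 (SE, n = 2 each), or 1.25-fold with an interval of 0.898-fold to 1.74-fold (limma adjusted p = 0.730). It was 0.10 without Alox15-/- replicate 1 and 0.54 without Alox15-/- replicate 2. A second Abcb1b probe set, above background on 1 of 4 arrays, differed by 0.29, with 5.29 and 4.80 in the arrays labelled Alox15-/- and 4.86 and 4.66 in WT. The paralogs are close in sequence, so part of the signal of each probe set may come from the other gene. That was not tested.

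Of the multidrug resistance-associated proteins, Abcc1 exports glutathione conjugates, including leukotriene C4, a product of the 5-lipoxygenase pathway. Its main probe set read 10.25 and 10.26 in the arrays labelled Alox15-/- and 10.004 and 9.85 in WT. The replicates lay close together in both groups and the groups did not overlap. The difference was 0.32 ± 0.13 (SE, n = 2 each), or 1.25-fold with an interval of 0.992-fold to 1.58-fold, and it had the smallest p of the 7 genes (unadjusted p = 0.0562, limma adjusted p = 0.657), at place 1551 of 18194 genes. The other Abcc1 probe set, also above background on all arrays, read 9.74 and 9.69 in the arrays labelled Alox15-/- and 9.79 and 9.74 in WT, a difference of -0.05 with an interval from -0.40 to 0.29. The main probe set has the suffix that Affymetrix gives to probes shared by several transcripts, and the other has not.

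Abcc4, which exports cyclic nucleotides and prostaglandins, read 8.61 and 8.70 in the arrays labelled Alox15-/- and 8.20 and 8.47 in WT. Both Alox15-/- values lay above both WT values. The difference was 0.32 ± 0.15 (SE, n = 2 each), or 1.25-fold with an interval of 0.958-fold to 1.63-fold (limma adjusted p = 0.685), and it was 0.19 without WT replicate 1 and 0.45 without WT replicate 2. The gene has a single probe set here.

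Abcc5, which also exports cyclic nucleotides, read 8.60 and 8.32 in the arrays labelled Alox15-/- and 9.21 and 8.17 in WT at its main probe set. WT replicate 1 was the highest and WT replicate 2 the lowest of the 4 arrays, with a gap of 1.04, the widest range among the pump genes. The difference was -0.23 ± 0.35 (SE, n = 2 each; limma adjusted p = 0.904), and it was 0.29 without WT replicate 1 and -0.75 without WT replicate 2. Abcc5 has 10 probe sets, of which 9 had negative differences, down to -0.54, and 1, below background on all 4 arrays, had 0.04. Of the 3 probe sets designed from the same sequence, the main one among them, 2 were over 0.8 higher in WT replicate 1 than in WT replicate 2, unlike all other Abcc5 probe sets. For 2 others the groups did not overlap. The first of these read 5.45 and 5.39 in the arrays labelled Alox15-/- and 5.92 and 6.00 in WT, a difference of -0.54 with an interval from -0.89 to -0.19. It had limma adjusted p = 0.591 over all probe sets with 1 gene symbol, and was the only one of the 21 pump probe sets with an unadjusted limma p under 0.05. Its suffix marks probes that may match other sequences. The second read 5.79 and 6.32 in the arrays labelled Alox15-/- and 6.53 and 6.56 in WT, a difference of -0.49.

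Abcb10, the mitochondrial transporter, read 8.98 and 8.67 in the arrays labelled Alox15-/- and 9.12 and 9.15 in WT, so both Alox15-/- values were lower. The difference was -0.31 ± 0.16 (SE, n = 2 each), or 0.807-fold with an interval of 0.614-fold to 1.06-fold (limma adjusted p = 0.691), and -0.15 without Alox15-/- replicate 2. Its 2 other probe sets, both above background, went the other way with groups that overlapped. One read 7.12 and 6.66 in the arrays labelled Alox15-/- and 6.47 and 6.77 in WT, a difference of 0.26, and the last differed by 0.08. With the mean of all 3 probe sets the Abcb10 difference was 0.01. The direction of Abcb10 therefore differed between probe sets, as did that of Abcc1 and, through 1 probe set below background, that of Abcc5. The probe sets of Abcb1a and of Abcb1b shared a sign, but the second probe set of each lay below background on most or all arrays.

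**Figure D2:**
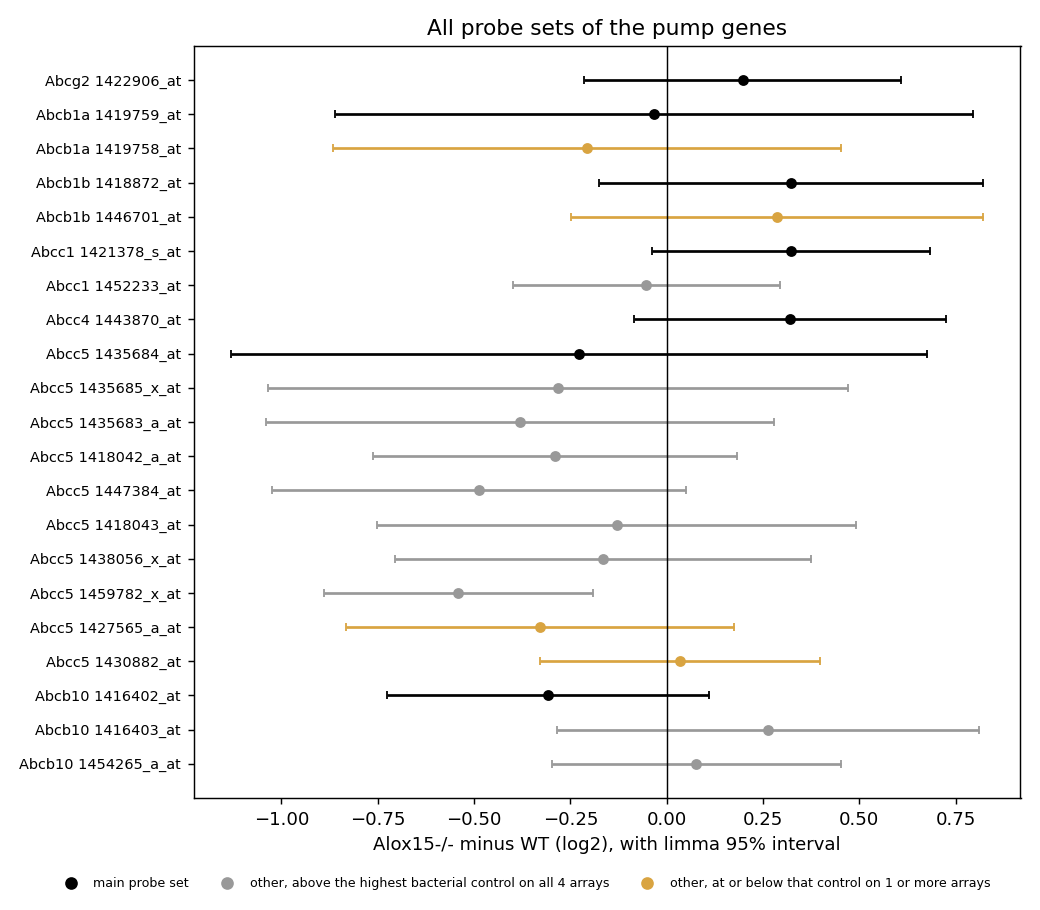
Differences of all 21 probe sets of the pump genes, Alox15-/- minus WT on the log2 scale (horizontal axis), with limma 95% intervals from the fit over every probe set with 1 gene symbol. Black marks the main probe set, grey others above background on all 4 arrays, and yellow those at or below it on 1 or more arrays. Of the 21 intervals only that of 1 Abcc5 probe set leaves out 0. Abcc1 and Abcb10 have probe sets of both signs, as does Abcc5 through 1 probe set below background.

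Leaving out 1 array at a time kept the sign of Abcg2, Abcb1b, Abcc1, Abcc4 and Abcb10, and turned that of Abcb1a and Abcc5. Abcc1 moved least, from 0.25 to 0.40. The intervals of the 7 genes over all 4 arrays reached from -1.11 to 0.80 between them, so they allow a fall of Abcc5 to 0.462-fold and a rise of Abcb1b to 1.74-fold.

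**Figure D3:**
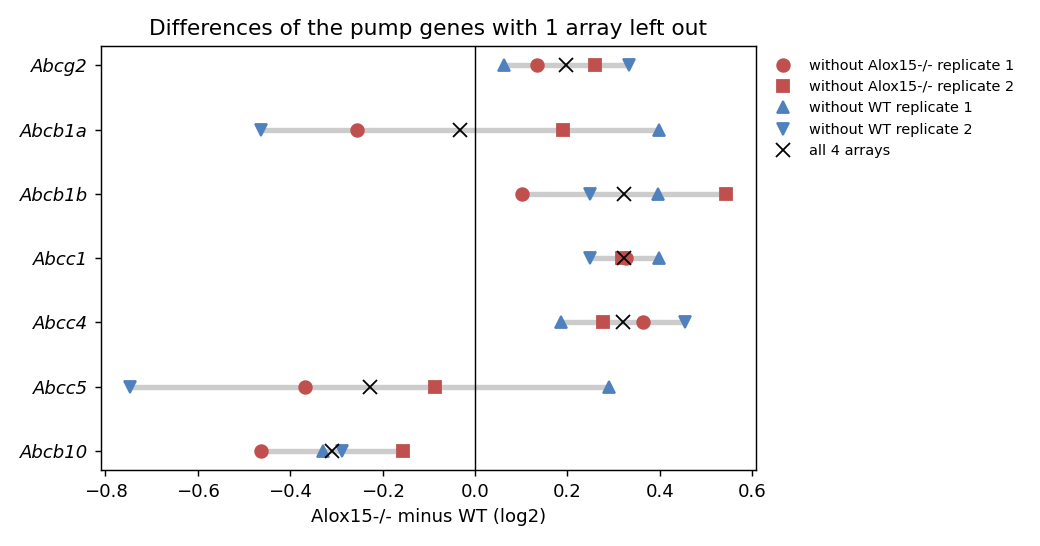
Differences of the 7 pump genes, Alox15-/- minus WT on the log2 scale (horizontal axis), over all 4 arrays (crosses) and without each array in turn (red for an Alox15-/- array left out, blue for a WT array). Abcc1 stays between 0.25 and 0.40, while Abcc5 spans -0.75 to 0.29 and Abcb1a -0.46 to 0.40.

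Among 41 other measured ABC transporter genes, 0 passed limma's threshold, 25 had positive and 16 negative differences, and the median was 0.03. Of the 41, 27 lay above background on all 4 arrays and 11 on none, so these counts include genes not shown to be detected. Groups did not overlap for 36.6% of the 41, near the 38.5% of all genes. For the lists of regulators, haem, glutathione and cyclic nucleotide genes below, this share ran from 22.2% (haem) to 55.6% (cyclic nucleotides). Of the 41 ABC genes, 3 with positive differences had an unadjusted p under 0.05, against 4.2% of all genes, and 1 with a negative difference, against 3.57%. This last gene was Abcg3, a rodent paralog of Abcg2, which read 7.84 and 8.28 in the arrays labelled Alox15-/- and 9.04 and 9.13 in WT. Its difference was -1.02 ± 0.19 (SE, n = 2 each; limma adjusted p = 0.476), and -0.40 at its other probe set. Abcc3, which exports glucuronides and bile salts, read 6.69 and 6.52 in the arrays labelled Alox15-/- and 5.64 and 5.86 in WT, a difference of 0.85 ± 0.15 (SE, n = 2 each; limma adjusted p = 0.447). Abcd2, a peroxisomal transporter of very long-chain fatty acids, differed by 0.67 (limma adjusted p = 0.630), with 0.38 to 1.79 at its other probe sets and a range of 0.40 to 0.93 without 1 array, and Abca4, a retinoid transporter known from photoreceptors, by 0.60 (limma adjusted p = 0.580). These 4 were picked for an unadjusted p under 0.05, whereas every pump gene is shown, so their sizes are not compared with those of the pump genes.

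The regulators and partners of the pumps include transcription factors that act on Abcg2 or the Abcb1 genes and the kinases and linker proteins that hold pumps at the membrane. Of 19 measured, 0 passed limma's threshold and 2 had an unadjusted p under 0.05, which 7.77% of all genes had. In sign 10 had positive and 9 negative differences, and the median was 0.00. Hif1a, a hypoxia-inducible factor, read 8.82 and 9.03 in the arrays labelled Alox15-/- and 9.56 and 9.24 in WT, a difference of -0.47 (limma adjusted p = 0.630), with -0.28 to 0.07 at its other probe sets and a range of -0.64 to -0.31 without 1 array. Epas1, the related factor known to act on Abcg2 in mouse heart side population cells, and Nr1i3 lay at or below background on all 4 arrays. Akt1, a kinase tied to the surface level of Abcg2, differed by 0.38 (limma adjusted p = 0.632), with -0.05 to 0.27 at other probe sets.

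Of 18 measured haem synthesis and mitochondrial iron genes, the pathway of Abcb10, 0 passed limma's threshold and 1, with a positive difference, had an unadjusted p under 0.05 (4.2% of all genes). In sign 12 had positive and 6 negative differences, and the median was 0.06. Abcb6 and Abcb8 are counted both here and among the other ABC genes. Fech, which inserts iron into protoporphyrin, read 9.11 and 9.20 in the arrays labelled Alox15-/- and 8.74 and 8.53 in WT, a difference of 0.52 (limma adjusted p = 0.580) with -0.27 to 0.58 at other probe sets. Hmox1, which degrades haem, differed by 0.50 (limma adjusted p = 0.657) and was 0.27 without WT replicate 1 and 0.73 without WT replicate 2.

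Genes of glutathione and leukotriene metabolism, only some of which make substrates of Abcc1, had 16 positive and 3 negative differences among 19 measured, with a median of 0.12. By limma 0 passed the threshold and 1, with a positive difference, had an unadjusted p under 0.05, against 4.2% of all genes. Gclm, the modifier subunit of the enzyme that starts glutathione synthesis, read 8.81 and 8.54 in the arrays labelled Alox15-/- and 7.75 and 8.33 in WT. Its difference was 0.63 (limma adjusted p = 0.630), 0.34 without WT replicate 1, and 0.56 at its other probe set. Gss, which completes glutathione, differed by 0.51 (limma adjusted p = 0.659) and by 0.23 at its other probe set, and it was 0.25 without WT replicate 2 and 0.78 without WT replicate 1.

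Genes of cyclic nucleotides, which are substrates of Abcc4 and Abcc5, comprised cyclases, phosphodiesterases and the protein kinase A subunits Prkaca and Prkar1a. They had 17 positive and 10 negative differences among 27 measured and a median of 0.09. By limma 0 passed the threshold, and 2 positive and 3 negative ones had an unadjusted p under 0.05, against 4.2% and 3.57% of all genes. Of the 27 genes, 21 lay above background on all 4 arrays and 4 on none. Pde5a, which degrades cyclic GMP, read 7.01 and 6.86 in the arrays labelled Alox15-/- and 5.98 and 6.24 in WT, a difference of 0.83 ± 0.15 (SE, n = 2 each; limma adjusted p = 0.487), with 0.12 and 0.22 at its other probe sets. Pde7b, a cyclic AMP phosphodiesterase, read 5.18 and 5.50 in the arrays labelled Alox15-/- and 4.36 and 4.14 in WT. Both WT values lay below background, and Alox15-/- replicate 1 lay just above its own background of 5.17, so no fold is given. Pde7b had limma adjusted p = 0.373, with -0.15 and 0.55 at its other probe sets. Gucy1a1, a subunit of the soluble guanylate cyclase, differed by -0.50 (limma adjusted p = 0.610), with -0.70 and -0.31 at other probe sets. Pde8a, which degrades cyclic AMP, differed by -0.44 (limma adjusted p = 0.618) and by 0.22 at its other probe set.

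**Figure D4:**
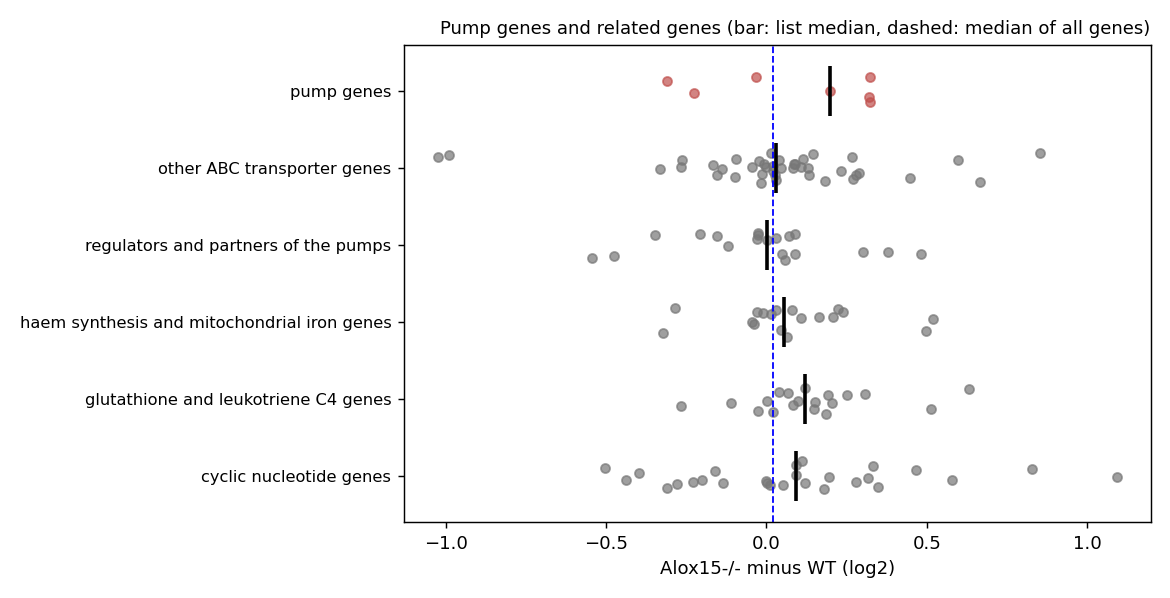
Differences, Alox15-/- minus WT on the log2 scale (horizontal axis), of the 7 pump genes (red) and of related gene lists (grey), 1 point per gene, with vertical jitter only for legibility. Black bars are list medians, 0.20 for the pump genes (-0.13 over all their 21 probe sets) and 0.00 to 0.12 for the others, and the dashed line is the median of all genes, 0.02. Some of the grey lists hold genes not above background on any array, 11 of the 41 other ABC genes among them.

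Markers of progenitors that the gate could hold, and of mature cells that the depletion of lineage-positive cells should remove, are given beside these values. Over all genes 53.8% had positive differences, 4.2% were positive with an unadjusted limma p under 0.05 and 3.57% negative with one. Granulocyte-monocyte progenitor markers had positive differences for 7 of 7 genes, 4 with unadjusted limma p under 0.05, and their summed signal, as a log2 value, was 13.33 and 13.45 in the arrays labelled Alox15-/- and 12.90 and 12.91 in WT. Mature neutrophil markers did so for 6 of 7, 4 of these and the remaining one with unadjusted limma p under 0.05, at 11.39 and 11.01 in the arrays labelled Alox15-/- and 9.37 and 10.45 in WT, with Mmp8 not above background on any array. Mast cell and basophil markers had positive differences for 6 of 6 genes, 4 with unadjusted limma p under 0.05. Of these 4, Fcer1a was not above background on any array and Prg2 was above it on 1. The summed signal of the 6 was 10.79 and 10.63 in the arrays labelled Alox15-/- and 10.58 and 10.34 in WT. Most of that sum came from Gata2, the brightest of the 6. Gata2 read 10.38 and 10.24 in the arrays labelled Alox15-/- and 10.28 and 10.08 in WT, so its groups overlapped. Stem cell and gate markers had 2 positive and 6 negative differences among 8 measured, 1 negative one with unadjusted limma p under 0.05, at 13.53 and 13.50 in the arrays labelled Alox15-/- and 13.78 and 13.72 in WT, each above background on every array; Kit was among them, while Ly6a, which encodes Sca-1, was not analysed here. For erythroid markers the signs were 3 and 3, and the summed signal was 8.52 to 8.75 in the arrays labelled Alox15-/- and 8.48 to 8.52 in WT. Among the erythroid markers 1, with a positive difference, had an unadjusted limma p under 0.05. Of 5 megakaryocyte markers 3 had positive differences, with summed signals of 9.84 to 9.93 in the arrays labelled Alox15-/- and 9.81 to 10.11 in WT, and 0 had an unadjusted limma p under 0.05. Differences were positive for 4 of 5 B cell markers, whose summed signal was 10.06 to 10.998 in the arrays labelled Alox15-/- and 9.62 to 9.99 in WT, and for 4 of 5 T and NK cell markers, at 10.43 to 10.50 in the arrays labelled Alox15-/- and 10.43 to 10.44 in WT. They were also positive for 4 of 6 macrophage markers, at 8.91 to 10.24 in the arrays labelled Alox15-/- and 8.43 to 9.25 in WT, and for 4 of 6 endothelial and stromal markers, at 9.40 to 9.65 in the arrays labelled Alox15-/- and 9.44 to 9.47 in WT. An unadjusted limma p under 0.05 was reached by 2 macrophage markers with positive differences, by 1 T and NK cell marker of each sign, by 1 B cell marker with a negative difference and by 0 endothelial and stromal markers. Most of the B cell sum came from Vpreb1, at 10.69 and 9.46 in the arrays labelled Alox15-/- and 8.79 and 9.30 in WT. Among macrophage markers C1qb had the widest range, at 9.53 and 6.225 in the arrays labelled Alox15-/- and 4.92 and 7.55 in WT. Its groups overlapped, and it was the brightest macrophage marker in Alox15-/- replicate 1. Only 3 of the 6 macrophage markers lay above background on all 4 arrays. No marker of any of these lists passed limma's adjusted threshold. Hba-a1, Gp1bb, Ms4a1, Cd3e, Adgre1 and Cdh5 lay at or below background on all 4 arrays. The part of these markers, and of the Gapdh difference, in the pump gene values was not tested.

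By the root mean square gap of values centred per gene, over the 4 arrays, the genes most like Abcg2 were Rgs6 (gap 0.0045), Selenom (0.0057) and Epn3 (0.0096). Rgs6 lay below background on all 4 arrays, so its pattern is not that of a gene shown to be detected. As many as 1399 named genes lay within 0.1 of Abcg2, whose values spanned only 0.40, so the likeness singles out little. The genes most like Abcc5, the pump gene with the widest range, were Nupr1 (gap 0.033), Retsat (0.036) and Adam5 (0.060), and 18 lay within 0.1. Adam5, too, lay below background on all 4 arrays. Nupr1, for example, read 6.71 and 6.40 in the arrays labelled Alox15-/- and 7.32 and 6.34 in WT, with WT replicate 1 highest as for Abcc5.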

How the data were processed

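Expression was measured on 4 Affymetrix arrays, 2 labelled Alox15-/- and 2 labelled WT, grouped by title. The deposited values are log2 values that the authors made with Affymetrix Expression Console 1.1 and RMA, per the submitters' processing notes, a method that subtracts background, normalizes by quantiles and summarises probe sets. The genome build was not given in the sources used here. Scanner files were not used here. The labels' protocols describe a kit for sense targets, whereas the probe set names are of a design for antisense targets, and which applies was not settled. Of 45101 probe sets, 34958 had 1 gene symbol, 932 several and 9211 none in the annotation used. Identifiers of 34754 matched RefSeq. The probe set with the highest mean stood for each of 18194 genes, with no filter on dim genes.

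All genes were fitted together with limma 3.58.1 (R 4.3.3), using lmFit and then eBayes without a block. Tests were two-sided, adjusted over all genes by Benjamini-Hochberg, with a threshold of 0.05. The code was checked on simulated data with changes larger than those of the pump genes, so this check does not cover differences of their size. Lists are described by counts and medians. Background is the highest of 27 Bacillus control probe sets on each array. Named genes are the 7 pump genes with every probe set, Alox15, from each list up to 4 genes with unadjusted p under 0.05 by size (or the 2 with the smallest p), and the 3 genes most like Abcg2 and the widest-ranging pump gene. Epas1, Nr1i3, Gata2, Vpreb1, C1qb, Prg2 and the markers below background are named for their level, and Itgam for its sign. The pump genes and lists were chosen with earlier results of these data known. Some genes of the lists are not reported here. Alternatives covered normalization, dim genes, variance moderation, array weights, probe sets, a replicate block and leaving out each array. Figures were drawn with matplotlib 3.10.9.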

Additional observations from a re-analysis of the deposited data

How the results depend on the processing

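Under each of 15 other settings 0 pump genes were called by limma, and the lowest adjusted p of any was 0.451. Of 104 single pump gene values under these settings, 100 kept their sign and stayed short of the threshold and 4 changed sign. These were Abcb10 with the mean of its probe sets (0.0104), Abcb1a without 1 array (range -0.46 to 0.40) and Abcc5 without 1 array (range -0.75 to 0.29). The median of the pump genes, 0.20 over all 4 arrays, was -0.13 over all 21 probe sets, 9 of the 13 negative ones being Abcc5's, and 0.10 to 0.29 without 1 array. Of all genes 1 was called, 22 with a mean-dependent prior variance, 2 with every probe set on its own and 0 without any 1 array, where 1 group is left with a single array whose spread is borrowed from the other group. Abcb1a had no value without the lowest 50 percent of genes. Same-numbered arrays did not deviate together (r = -0.02 across 18194 genes, which are not independent), and nothing in the labels ties them. With the replicate block 0 pump genes and 1 gene of all were called, and the pump gene median was 0.20. Depth on arrays is set by signal over background, and 2 of the 21 probe sets lay below it on all arrays.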
